A study of Homo sapiens with 4 samples.

Results

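RNA of A673 cells was compared at 48 h and 24 h after transfection with a control siRNA, to describe what another 24 h in culture does to the transcripts of these cells. A673 is an established line from an Ewing sarcoma, a tumour driven by the fusion transcription factor EWSR1-FLI1. The comparison uses 2 of the 4 libraries of the series, 1 at 24 h and 1 at 48 h, chosen by their labels. All cells were the same line, grown in DMEM with 10% fetal bovine serum and transfected with RNAiMAX. The control siRNA is labelled scramble, and the other 2 libraries, also taken at 24 h and 48 h, received an siRNA against FAT4, an atypical cadherin. The siRNA and the lipid reagent were thus in every culture, and no untransfected culture was used here, so time in culture and time since transfection cannot be told apart. Each group is 1 library of 1 line, so no value has a replicate culture behind it, and no test between times was made.

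Cells left on the same medium use up amino acids, glucose, sterols and oxygen, and several sensors are known to answer. Whether the medium was changed is not given in the sources used here. When amino acids run short, uncharged tRNAs activate the kinase GCN2, translation initiation slows, and the transcription factor ATF4 is made and switches on genes for amino acid synthesis, uptake and tRNA charging. When oxygen falls, prolyl hydroxylases no longer mark HIF1A for destruction, and it switches on glycolytic and angiogenic genes. When sterols fall in the endoplasmic reticulum, SREBP2 moves to the Golgi and is released to switch on cholesterol synthesis and uptake. MYC drives the opposite programme of growth, in which ribosome assembly takes a large share.

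The words in DNA that some of these factors bind are shown first, because the gene groups described further on were searched for them. Promoters are from RefSeq on GRCh38.p14, from 250 bases before to 50 after each gene's start. A promoter was matched for 8619 of the 10595 genes compared below. TGATGCAA, a word bound by ATF4 with a C/EBP partner, was searched on both strands. The following 30-base stretches hold it in members of 3 lists, namely the ATF4 targets, the genes of serine and one-carbon synthesis and the cytosolic aminoacyl-tRNA synthetases. They are given 5′ to 3′ on the gene's strand, with the word or its reverse complement in capitals.
CHAC1, chr15:40953251-40953280, plus strand: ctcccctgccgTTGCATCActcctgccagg
CARS, chr11:3057407-3057436, minus strand: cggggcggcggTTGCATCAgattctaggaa
TARS, chr5:33440956-33440985, plus strand: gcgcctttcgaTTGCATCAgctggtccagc
MARS, chr12:57488053-57488082, plus strand: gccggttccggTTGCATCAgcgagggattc
AARS, chr16:70289675-70289704, minus strand: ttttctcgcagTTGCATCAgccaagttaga
MTHFD1L, chr6:150866346-150866375, plus strand: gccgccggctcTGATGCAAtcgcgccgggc
IARS, chr9:92293692-92293721, minus strand: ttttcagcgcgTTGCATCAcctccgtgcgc
NARS, chr18:57621804-57621833, minus strand: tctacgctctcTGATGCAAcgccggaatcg
In 5 of these 8 promoters (CARS, TARS, MARS, IARS and NARS) the word lay within 14 bases of the annotated start.

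The next 5 stretches show the other words, again in capitals. The ASNS word is TGATGNAA, a looser spelling with any base at N that was added after the sequences were seen and that includes TGATGCAA. ACGTG is the core of the hypoxia response element, and CACGTG is the E-box of MYC, MondoA and TFEB, which contains ACGTG on both strands.
ASNS, chr7:97872458-97872487, minus strand: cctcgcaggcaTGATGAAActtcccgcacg
CA9, chr9:35673898-35673927, plus strand: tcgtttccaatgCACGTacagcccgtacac
BNIP3, chr10:131982039-131982068, minus strand: cgcacgcgccgcACGTGccacacgcacccc
RRP9, chr3:51941892-51941921, minus strand: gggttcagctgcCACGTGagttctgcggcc
UTP20, chr12:101280083-101280112, plus strand: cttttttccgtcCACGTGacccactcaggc
The word of ASNS began 68 bases before its start, that of CA9 18, that of BNIP3 133, that of RRP9 5 and that of UTP20 10.

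Counts assigned to genes summed to 22625833 in the control 24 h library and 19614913 in the control 48 h library, and to 15196813 and 15413960 in the FAT4 siRNA libraries. Levels are given as TMM-scaled CPM, that is read counts relative to the library's gene counts after scaling between libraries. They are not divided by transcript length, so levels of different genes are not compared. A ratio is 48 h over 24 h, with an exact 95% Clopper-Pearson interval that covers counting error only. A log2 ratio is taken of CPM + 1, which understates the change of genes of low level. The labels were checked first. FAT4 measured 165 CPM at 24 h and 149 CPM at 48 h in control cells, against 71.8 and 60.2 CPM after FAT4 siRNA. Of 12 Ewing sarcoma markers, 11 stood between 70.4 and 2690 CPM in the control libraries, among them NR0B1, NKX2-2, STEAP1, PRKCB and CCND1. The other, CD99, was listed at 0 counts in all 4 libraries. It is a gene of the larger pseudoautosomal region, shared by the X and Y chromosomes, of which 14 of 15 genes were listed at 0 throughout, so its level could not be checked. Of the 12 epithelial markers, only KRT8 and KRT18 reached a mean of 5 CPM. Of the 12 blood and endothelial markers, only CD68 did, and CD3E and HBB had 0 counts throughout. Of the 12 fibroblast and muscle markers, THY1, PDGFRB, ACTA2 and TAGLN did, and MYOD1, MYOG and DES had 0 counts throughout.

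Most transcripts differed little between the 2 times. Of the 10595 genes whose mean over the 4 libraries was 5 CPM or more, 65.2% lay within 1.2-fold and 93.8% within 1.5-fold, and the median log2 ratio was -0.01. At least 2-fold higher at 48 h were 92 genes (0.868% of those compared), and 29 were at least 2-fold lower (0.274%). At 1.5-fold, the limit used below to count members of gene lists, 430 genes were higher (4.06%) and 231 lower (2.18%). More genes were thus higher than lower at both limits. By counting interval the order was the reverse, with 3082 genes wholly above 1 and 3593 wholly below 1. Of the 92 higher genes, 29 were under 5 CPM at 24 h and passed the filter through other libraries, and of the 29 lower genes 6 were under 5 CPM at 48 h. The share past 2-fold in either direction was 2.41% of genes at 5 to 20 CPM, 0.844% at 20 to 100 CPM and 0.536% above 100 CPM.

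**Figure D1:**
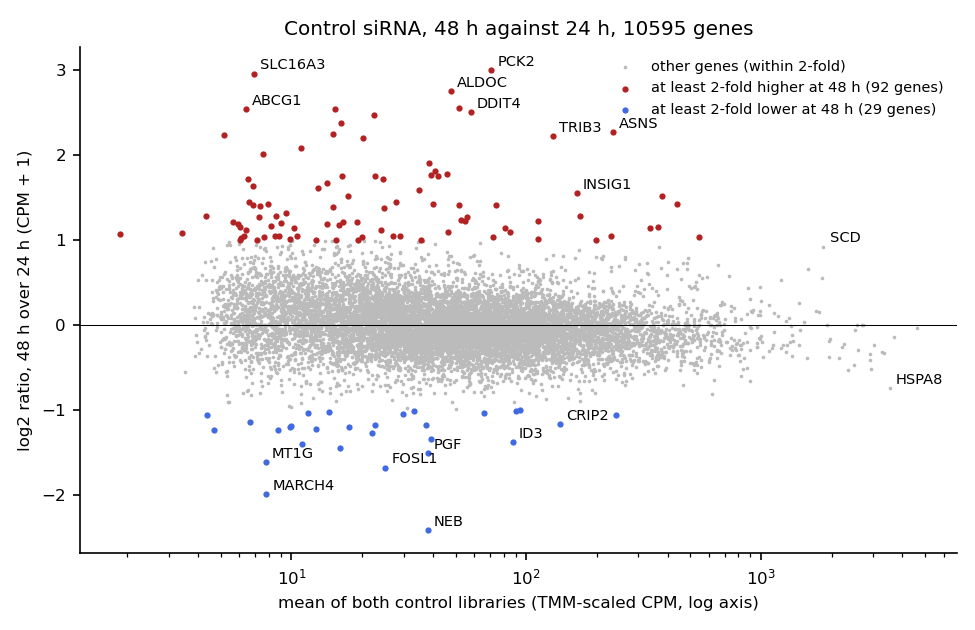
Log2 ratio of CPM + 1 (48 h over 24 h, control siRNA) against the mean level of both control libraries in TMM-scaled CPM on a log axis, 1 point for each gene whose mean over the 4 libraries was 5 CPM or more. The 92 genes at least 2-fold higher (red) reach a log2 ratio of 3.0 at PCK2, and the 29 genes at least 2-fold lower (blue) reach -2.41 at NEB.

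The genes furthest up included enzymes and transporters of amino acid, glucose and lipid metabolism. SLC16A3, the lactate exporter MCT4, measured 0.806 CPM at 24 h and 13.1 CPM at 48 h (16.2-fold, interval 10.1 to 27.8). PCK2, the mitochondrial enzyme that makes phosphoenolpyruvate, measured 15 and 127 CPM (8.49-fold, 7.57 to 9.54). ABCG1, which exports cholesterol from cells, measured 1.16 and 11.6 CPM (9.99-fold, 6.65 to 15.6). ALDOC, a glycolytic aldolase, followed with 11.5 and 83.7 CPM (7.28-fold). Of the 15 genes with the highest lower bounds, 7 were on the list of ATF4 targets (VLDLR, DDIT4, CHAC1, ASNS, TRIB3, JDP2) or of serine and one-carbon synthesis (ALDH1L2). The remaining genes of these 15 were TMEM45A, C6orf223, ULBP1 (a stress ligand for natural killer cells) and ADM2 (a peptide hormone), between 5.16-fold and 7.90-fold higher. SLC16A3, ABCG1, TMEM45A, VLDLR, JDP2, C6orf223 and ULBP1 were each under 5 CPM at 24 h, and the lower their level, the wider the counting interval. Of the 92 genes at least 2-fold higher, 18 were on the 4 lists of ATF4 targets and amino acid supply, which hold 72 (0.680%) of the genes compared. A further 8 were on the lists of hypoxia and glycolysis genes (42 genes compared, 0.396%) and 7 on those of sterol, fatty acid and LXR genes (52 genes compared, 0.491%). None of the 29 genes at least 2-fold lower was on any of these lists.

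ATF4 targets were higher at 48 h as a group. Of 25 genes on the list, 22 reached the filter, and 16 of these were at least 1.5-fold higher and 1 lower, beside 4.06% and 2.18% of all genes. Their median log2 ratio was 1.08, beside -0.01 over all genes. The 16 include GDF15, which was under 5 CPM in both control libraries. GDF15 passed the filter only through the FAT4 siRNA 48 h library. ASNS, which makes asparagine from aspartate and glutamine, measured 79.7 CPM at 24 h and 388 CPM at 48 h (4.88-fold, 4.63 to 5.14). TRIB3, a pseudokinase that feeds back on ATF4, measured 45 and 215 CPM (4.77-fold). CHAC1, which degrades glutathione, measured 6.18 and 39.0 CPM (6.31-fold). DDIT4, an inhibitor of mTORC1 that is also a hypoxia target, measured 16.6 and 99.2 CPM (5.99-fold), and SESN2, which senses leucine for mTORC1, measured 17.5 and 64.4 CPM (3.68-fold). A pair of brakes on mTORC1 thus stood among the higher genes.
ATF4 itself measured 259 and 396 CPM (1.53-fold, 1.48 to 1.58), and its partner CEBPG 114 and 179 CPM (1.57-fold). ATF5, a related factor, measured 236 and 640 CPM (2.71-fold, 2.62 to 2.80), and ATF3 9.62 and 20.2 CPM (2.10-fold). Transcripts of the factors were thus less far apart than those of ASNS, CHAC1 or TRIB3. DDIT3, which encodes the death-linked factor CHOP, measured 46.1 and 58.9 CPM, a log2 ratio of 0.35. PPP1R15A, which reverses the block on translation initiation, was the only member past 1.5-fold in the other direction, with 97.5 and 64.3 CPM. After correction for GC content and transcript length 0 members were at least 1.5-fold lower. In the FAT4 siRNA pair all 22 members, PPP1R15A among them, had log2 ratios above 0. NUPR1, INHBE and FGF21 stayed under the filter: INHBE had 0.67 CPM at 24 h and 5.12 CPM at 48 h, and FGF21 had 1 count at 24 h and 0 counts at 48 h.

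Genes that make, import and charge amino acids followed. In serine, one-carbon and proline synthesis 7 of 15 compared genes were at least 1.5-fold higher and 0 lower (median log2 ratio 0.39). The higher share was 46.7%, beside 4.06% of all genes. ALDH1L2, a mitochondrial enzyme of folate metabolism, measured 14.4 and 89.3 CPM (6.21-fold, 5.52 to 7.02). All 3 enzymes of serine synthesis were higher, with PHGDH at 357 and 619 CPM (1.74-fold), PSAT1 at 194 and 559 CPM (2.87-fold) and PSPH at 50.4 and 113 CPM (2.24-fold). MTHFD2, the mitochondrial folate dehydrogenase, measured 224 and 502 CPM (2.24-fold), and PYCR1, which makes proline, 93.2 and 166 CPM (1.78-fold). MTHFD1, TYMS and SHMT1, which serve folate metabolism outside the mitochondrion, had log2 ratios of -0.23, -0.17 and -0.02 in that order. ALDH18A1, of proline synthesis, stood at -0.06.
Among 17 amino acid transporters 5 were at least 1.5-fold higher and 1 lower (29.4% and 5.88%, beside 4.06% and 2.18% of all genes). The glycine transporter SLC6A9 measured 30.8 and 74.1 CPM (2.40-fold, 2.19 to 2.63), the arginine and lysine transporter SLC7A1 193 and 332 CPM (1.72-fold) and the glutamine transporter SLC38A1 154 and 266 CPM (1.73-fold). SLC7A11, which imports cystine, measured 225 and 354 CPM (1.58-fold). SLC1A3, a glutamate and aspartate transporter, was on the other side with 51.7 and 29.3 CPM (1.76-fold lower).

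The cytosolic aminoacyl-tRNA synthetases, which load each amino acid onto its tRNA, split into 2 blocks. Of 20 compared, 7 were at least 1.5-fold higher (35%, beside 4.06% of all genes) and 0 lower. GARS measured 354 and 729 CPM (2.06-fold, 2.0 to 2.12), SARS 254 and 480 CPM (1.89-fold), CARS 117 and 218 CPM (1.86-fold), TARS 299 and 502 CPM (1.68-fold), MARS 362 and 600 CPM (1.66-fold), AARS 498 and 815 CPM (1.64-fold) and YARS 287 and 460 CPM (1.6-fold). Another 7 had intervals wholly below 1, with FARSA at 204 and 149 CPM and KARS at 377 and 296 CPM (log2 ratios of -0.45 and -0.35). The promoter word TGATGCAA was present in the promoters of 6 of the 13 synthetases with a RefSeq promoter matched here, whose log2 ratios ran from 0.57 to 0.89 (median 0.72). The 7 without it (EPRS, FARSA, FARSB, HARS, KARS, RARS and WARS) ran from -0.45 to 0.53 (median -0.19). GARS, SARS and YARS, each at least 1.5-fold higher, had no promoter matched here and stand in neither group. In the FAT4 siRNA pair the medians were 0.64 with the word and -0.22 without it, and WARS, without it, was the highest of all 13 at 1.03. The word lay in 0.923% of all 27305 promoters, in 0.499% of those of the genes compared, in 14 of 328 promoters (4.27%) of genes at least 1.5-fold higher and in 1 of 183 (0.546%) of those at least 1.5-fold lower. On the ATF4 list only CHAC1 and FGF21, of 21 matched, held it. TGATGNAA lay in 5 of these 21 (ASNS, ATF3, SLC3A2, CHAC1 and FGF21), beside 3.67% of all promoters and 1.58% of those of the genes compared. A match is a description of letters, and no binding was measured.

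Hypoxia genes were higher at 48 h while most of glycolysis stayed within 1.5-fold. Of 28 hypoxia genes 23 reached the filter, 11 at least 1.5-fold higher and 1 lower, with a median log2 ratio of 0.51. The shares were 47.8% and 4.35%, beside 4.06% and 2.18% of all genes. PDK1, which keeps pyruvate out of the mitochondrion, measured 9.85 and 35.7 CPM (3.62-fold, 3.11 to 4.23). BNIP3 and BNIP3L, receptors for the removal of mitochondria, measured 16.9 and 52.8 CPM (3.12-fold) and 66.8 and 158 CPM (2.36-fold). VEGFA, the angiogenic growth factor, measured 132 and 266 CPM (2.02-fold, 1.93 to 2.11), and P4HA2, a collagen prolyl hydroxylase, 5.06 and 12.9 CPM (2.55-fold). VEGFA is also an ATF4 target and DDIT4 stood on the ATF4 list, so the lists are not independent of each other.
CA9, a carbonic anhydrase that is nearly silent in oxygenated cells, stayed under the filter, with 2 counts at 24 h and 83 counts at 48 h, a ratio of 46.1 with a counting interval of 12.4 to 387. HIF1A, regulated mainly through its protein, measured 204 and 231 CPM. Against the group stood PFKFB3, a glycolytic regulator, with 194 and 106 CPM (log2 ratio -0.86). ADM measured 7.03 and 5.81 CPM, with a counting interval that includes 1. The ACGTG core lay in 11 of 23 matched hypoxia promoters (47.8%), beside 21.6% of all promoters and 27.9% of those of the genes compared. Members were listed as hypoxia genes, so a larger share may follow from that choice.
Of 21 glycolysis genes only SLC16A3 and ALDOC were at least 1.5-fold higher (9.52%, beside 4.06% of all genes). None was at least 1.5-fold lower, and the median log2 ratio was 0.04. PGK1 measured 619 and 731 CPM and HK2 79.3 and 102 CPM, while ENO1 measured 3242 and 2562 CPM and PKM2 3472 and 2427 CPM (log2 ratio -0.52).

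Genes of cholesterol and fatty acid synthesis were higher too. On the sterol list 13 of 25 compared genes were at least 1.5-fold higher (52%, beside 4.06% of all genes) and 0 lower. A log2 ratio above 0 was found for 24, and the median was 0.63. INSIG1, which holds SREBP in the endoplasmic reticulum and is itself an SREBP target, measured 82.5 and 245 CPM (2.97-fold, 2.81 to 3.13). HMGCS1, an early enzyme of the mevalonate pathway, measured 209 and 461 CPM (2.21-fold), and MVD, a later one, 73.6 and 150 CPM (2.03-fold). FDFT1, which makes squalene, measured 341 and 538 CPM (log2 ratio 0.66). Over the whole list the log2 ratios ran from -0.12 to 1.56. CCAAT, the box bound by NF-Y, lay in 15 of 18 matched sterol promoters (83.3%) and in 45 of 70 (64.3%) of genes at least 2-fold higher, beside 35.7% of all promoters and 37.7% of those of the genes compared.
Of 17 fatty acid genes 4 were at least 1.5-fold higher (23.5%, beside 4.06% of all genes) and 0 lower (median 0.44). ACSS2, which activates acetate, measured 40.0 and 108 CPM (2.71-fold, 2.50 to 2.93), SCD, the stearoyl-CoA desaturase, 1269 and 2411 CPM (1.90-fold), and FASN, the fatty acid synthase, 992 and 1440 CPM (1.45-fold). SREBF1, the factor that controls them, measured 162 and 220 CPM (1.36-fold). ABCG1 and ABCA5 were the only 2 of 11 LXR and cholesterol efflux genes compared that were past 1.5-fold (18.2%). ABCA5 was lower at 48 h in the FAT4 siRNA pair (log2 ratio -0.51). ABCA1, under the filter, measured 2.01 and 4.62 CPM in control cells (2.29-fold, 1.59 to 3.35).

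The lists of glucose and growth factor sensing also held a larger share of members at least 1.5-fold higher than the 4.06% of all genes. Of 6 alpha-arrestin and MondoA genes compared, 2 were at least 1.5-fold higher (33.3%) and 0 lower, 5 had a log2 ratio above 0, and the median was 0.45. After correction for GC content and transcript length, 3 of the 6 were higher. TXNIP, an alpha-arrestin that restrains glucose uptake and is switched on by MondoA, measured 17.3 and 61.4 CPM (3.55-fold, 3.17 to 4.0). MLXIPL, the glucose-responsive factor ChREBP, measured 12.9 and 21.7 CPM (1.68-fold, 1.44 to 1.96). Among the other arrestins ARRDC4, under the filter, measured 2.55 and 5.57 CPM (2.18-fold, 1.57 to 3.06), ARRDC1 8.10 and 11.8 CPM (1.46-fold), ARRDC3 40.9 and 54.6 CPM (1.33-fold) and ARRDC2 15.5 and 16.2 CPM. MLXIP, which encodes MondoA, was the member below 0, with 38.8 and 32.3 CPM. TXNIP, MLXIPL, ARRDC4, ARRDC3 and ARRDC1 had higher levels at 48 h in the FAT4 siRNA pair as well, with log2 ratios of 2.28, 0.83, 0.92, 0.50 and 0.30. Of 14 FOXO and starvation genes 3 were at least 1.5-fold higher (21.4%) and 0 lower (median 0.13), namely TXNIP, FOXO3 with 6.18 and 13.5 CPM (2.19-fold) and CCNG2 with 9.98 and 21.1 CPM (2.11-fold). Of 15 growth arrest genes 3 were higher (20%) and 1 lower (median 0.08). HBP1, a repressor of cell cycle genes, measured 12.7 and 27.1 CPM (2.14-fold, 1.85 to 2.48), and E2F4 was the lower member with 112 and 69.8 CPM (1.61-fold lower).

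**Figure D2:**
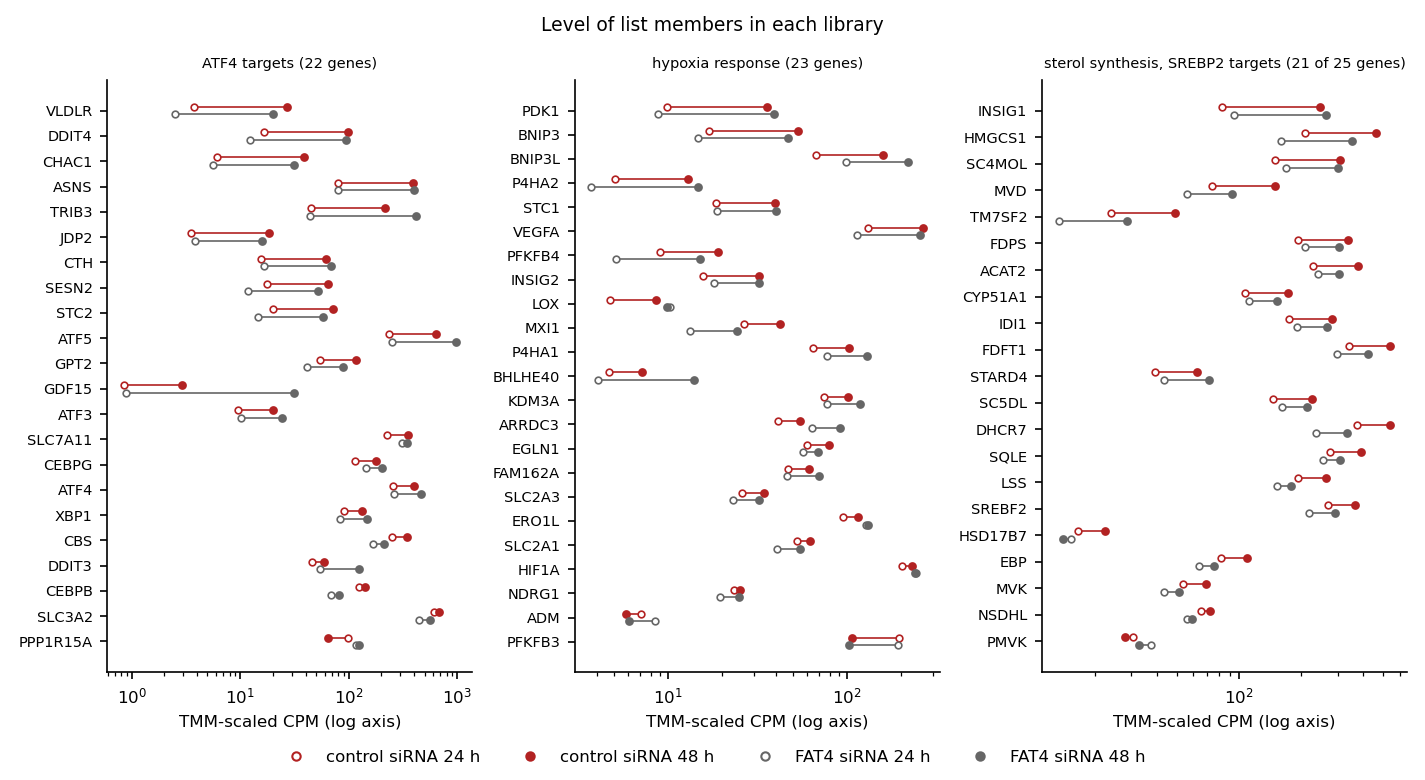
Level of members that reached a mean of 5 CPM on 3 lists, in TMM-scaled CPM on a log axis, in control siRNA (red) and FAT4 siRNA (grey) at 24 h (open circles) and 48 h (filled circles), ordered by the control log2 ratio. Most lines run to the right from 24 h to 48 h in both colours, PFKFB3 runs to the left in both, and GDF15 differs between them.

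The genes furthest down were of mixed kinds. NEB, a giant protein of the muscle thin filament, measured 64.6 CPM at 24 h and 11.3 CPM at 48 h (5.71-fold lower, interval 4.96 to 6.59). MARCH4, a membrane ubiquitin ligase, measured 13.0 and 2.53 CPM (5.14-fold lower), and FOSL1, an AP-1 subunit downstream of ERK, 38.7 and 11.4 CPM (3.38-fold lower). PGF, a growth factor of the VEGF family, measured 56.6 and 19.3 CPM (2.93-fold lower), opposite to VEGFA. ID3 and ID1, inhibitors of basic helix-loop-helix factors and targets of BMP, measured 126 and 48.3 CPM (2.62-fold lower) and 24.8 and 10.2 CPM (2.42-fold lower). With SMAD6 they were the 3 of 14 TGF-beta, BMP and ID genes at least 1.5-fold lower, and 0 were higher. The lower share was 21.4%, beside 2.18% of all genes. The neurotensin receptor NTSR1 measured 56.9 and 21.9 CPM, the LIM protein CRIP2 193 and 85.8 CPM and the transcription factor GATA2 52.2 and 22.6 CPM (2.60-fold, 2.24-fold and 2.31-fold lower). MT1G, a metallothionein, measured 12.2 and 3.33 CPM (3.66-fold lower), whereas MT1E measured 4.43 and 9.89 CPM (2.23-fold higher). Metallothioneins are near-identical copies, so the split of reads among them is uncertain. The rest of the 15 with the lowest upper bounds were SAMD11, MRGPRF, METTL7B, IL6R, FGFR3 and TAGLN, between 2.52-fold and 2.93-fold lower.

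Genes on the list of MYC targets and ribosome biogenesis were lower throughout, by small amounts. All 38 genes of the list had log2 ratios below 0, and the counting interval lay wholly below 1 for 37. At least 1.5-fold lower were 13 (34.2%, beside 2.18% of all genes), 0 were higher, and the median was -0.43. RRP9, which processes ribosomal RNA, measured 44.7 and 21.7 CPM (2.06-fold lower). RRP12 measured 141 and 78.7 CPM (1.79-fold lower), UTP20 215 and 124 CPM (1.74-fold lower) and NOP2 240 and 141 CPM (1.70-fold lower). POLR1A, the large subunit of RNA polymerase I, measured 171 and 115 CPM, and NCL, the nucleolar protein nucleolin, 2207 and 1699 CPM (log2 ratios of -0.57 and -0.38). MYC itself measured 173 and 161 CPM, a log2 ratio of -0.10, the smallest difference of the 38. The E-box CACGTG lay in 9 of 30 matched promoters of the list (30%), beside 7.43% of all promoters and 10.7% of those of the genes compared. Members were listed partly as MYC targets, so a larger share may follow from that choice. It also lay in 36 of 183 promoters (19.7%) of genes at least 1.5-fold lower.
The 69 ribosomal protein genes compared had 0 members past 1.5-fold in either direction and a median of -0.17.

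Genes of DNA replication were slightly lower and those of mitosis stayed within 1.5-fold. Of 53 replication and S phase genes 2 were at least 1.5-fold lower (3.77%, beside 2.18% of all genes) and 0 were higher. A log2 ratio above 0 was found for 4 of them (median -0.25). The 2 lower members were CCNE1 and TIPIN. CCNE1, the cyclin of S phase entry, measured 8.19 and 4.27 CPM (1.92-fold lower). TIPIN, of the replication fork, measured 39.3 and 25.0 CPM (1.57-fold lower). MCM5, a subunit of the replicative helicase, measured 392.0 and 270 CPM (1.45-fold lower). Of 51 genes of G2 phase and mitosis 0 passed 1.5-fold in either direction (median -0.01, with 25 above 0). In bulk RNA, fewer cells in a phase and less RNA per cell cannot be told apart.

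Chaperones, interferon-stimulated genes and targets of YAP and TAZ also had a larger share of members at least 1.5-fold lower (16.7%, 13.3% and 23.5%) than the 2.18% of all genes. Of 24 heat shock genes 4 were at least 1.5-fold lower and 0 higher (median -0.32), namely the constitutive chaperone HSPA8 with 4416 and 2652 CPM (1.66-fold lower, 1.65 to 1.68), HSPB1, HSPH1 and HSPA1A. In the FAT4 siRNA pair this list had 0 lower members and a median of -0.08, and HSPA1A measured 56.7 and 64.6 CPM. The difference between the pairs was not tested. Of 30 interferon-stimulated genes compared, 4 were at least 1.5-fold lower, among them IFIT1, IFIT2 and IFIT3, and 0 higher (median -0.33). IFIT1, which binds foreign RNA, measured 14.3 and 7.70 CPM (1.85-fold lower), and IFIT3, of the same family, 31.2 and 18.8 CPM (1.66-fold lower). Of 17 targets of YAP and TAZ 4 were lower and 0 higher (median -0.17). CTGF, a matrix-associated growth factor, measured 14.6 and 7.26 CPM (2.01-fold lower), and NT5E, an ectonucleotidase, 81.4 and 46.7 CPM (1.74-fold lower). After FAT4 siRNA CTGF measured 41.4 and 39.3 CPM.

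The remaining lists had from 0 to 5 members past 1.5-fold, apart from the genes repressed by EWSR1-FLI1, which are described further on. Over all genes the shares were 4.06% higher and 2.18% lower. Of 33 lysosome and autophagy genes 3 were lower (9.09%) and 1 higher (median -0.11). Among the lower were ATP6V0D1, a subunit of the proton pump of lysosomes, with 70.9 and 43.2 CPM (1.64-fold lower), and SQSTM1, an autophagy receptor, with 97.5 and 61.4 CPM (1.59-fold lower). OPTN, another autophagy receptor, was the higher one with 17.1 and 27.9 CPM (1.64-fold). The 18 MAPK feedback genes had 2 lower members (11.1%), FOSL1 and the phosphatase DUSP7 with 39.9 and 26.1 CPM, 0 higher members and a median of -0.07. Of 23 immediate early genes FOSL1 was lower and ATF3 higher (median -0.25). In extracellular matrix 3 of 30 genes were higher (10%) and 2 lower (6.67%), with a median of 0.01. COL1A2, a chain of type I collagen, measured 374 and 594 CPM (1.59-fold), while MMP2, a matrix protease, measured 61.1 and 38.9 CPM (1.57-fold lower) and TIMP1, a protease inhibitor, 341 and 221 CPM (1.54-fold lower). After correction for GC content and transcript length neither MMP2 nor TIMP1 stayed past 1.5-fold, and 0 of the matrix genes were lower.
The 25 cadherin and cell contact genes had 2 higher members (8%), among them NCAM1 with 19.7 and 32.4 CPM (1.64-fold), and 0 lower. Of 21 NRF2 targets 2 were higher, SLC7A11 and AKR1C1, and 1 was lower, the ferritin chain FTL with 993 and 656 CPM (median -0.19). Of 24 p53 targets GDF15 and SESN2, which are also on the ATF4 list, were higher (8.33%). The nuclease AEN was lower (4.17%), and the list's median was 0.12. GDF15 was under 5 CPM in both control libraries and passed the filter only through the FAT4 siRNA 48 h library. The lists of NF-kappaB targets (10 genes), circadian clock genes (14 genes) and NOTCH, hedgehog and WNT targets (17 genes) each had 1 higher and 0 lower members, with medians of 0.19, 0.12 and -0.01. The higher shares were 10%, 7.14% and 5.88%, beside 4.06% of all genes. The circadian member, HLF, reached the filter only through the control 48 h library, with 4.48 and 8.45 CPM in control cells. After FAT4 siRNA HLF measured 3.99 and 3.39 CPM. SNHG12 alone of 12 nuclear retained and snoRNA host RNAs was lower, and 0 were higher. Among 8 metallothionein and zinc genes 2 were higher and 2 lower, and of 33 replication-dependent histone genes only 3 reached the filter, with 0 past 1.5-fold.

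Among the genes tied to the tumour's own fusion, those it activates lay near the background, while those it represses had members past 1.5-fold on both sides. Of 42 genes activated by EWSR1-FLI1, 2 were at least 1.5-fold higher (4.76%), 0 lower, and the median was 0.01. They were PLD1, a phospholipase, with 6.45 and 12.9 CPM, and PHGDH, which is also on the serine list. Of 27 genes repressed by the fusion 4 were higher and 4 lower (14.8% each, beside 4.06% and 2.18% of all genes), with a median of -0.10. The counting interval lay wholly above 1 for 6 of them and wholly below 1 for 13. CD44, a hyaluronan receptor, measured 9.53 and 3.78 CPM (2.52-fold lower), while IGFBP5 measured 8.10 and 17.2 CPM (2.13-fold higher). After FAT4 siRNA CD44 measured 12.6 and 4.03 CPM and IGFBP5 7.17 and 8.95 CPM. Only 2 of the higher and 1 of the lower members were past 1.5-fold in both siRNA pairs. CTGF and NT5E, both lower, are also on the YAP and TAZ list, and COL1A2 and LOX, both higher, on the matrix list. FLI1, whose 3′ part is in the fusion, measured 95.3 and 81.2 CPM, and EWSR1 267 and 222 CPM. No member of the lists of oxidative phosphorylation (52 genes) or neural genes (25 genes) passed 1.5-fold. On the list of endoplasmic reticulum chaperones HERPUD1 alone of 24 did, with 76.0 and 119 CPM, while HSPA5, the main chaperone there, measured 1024 and 721 CPM.

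**Figure D3:**
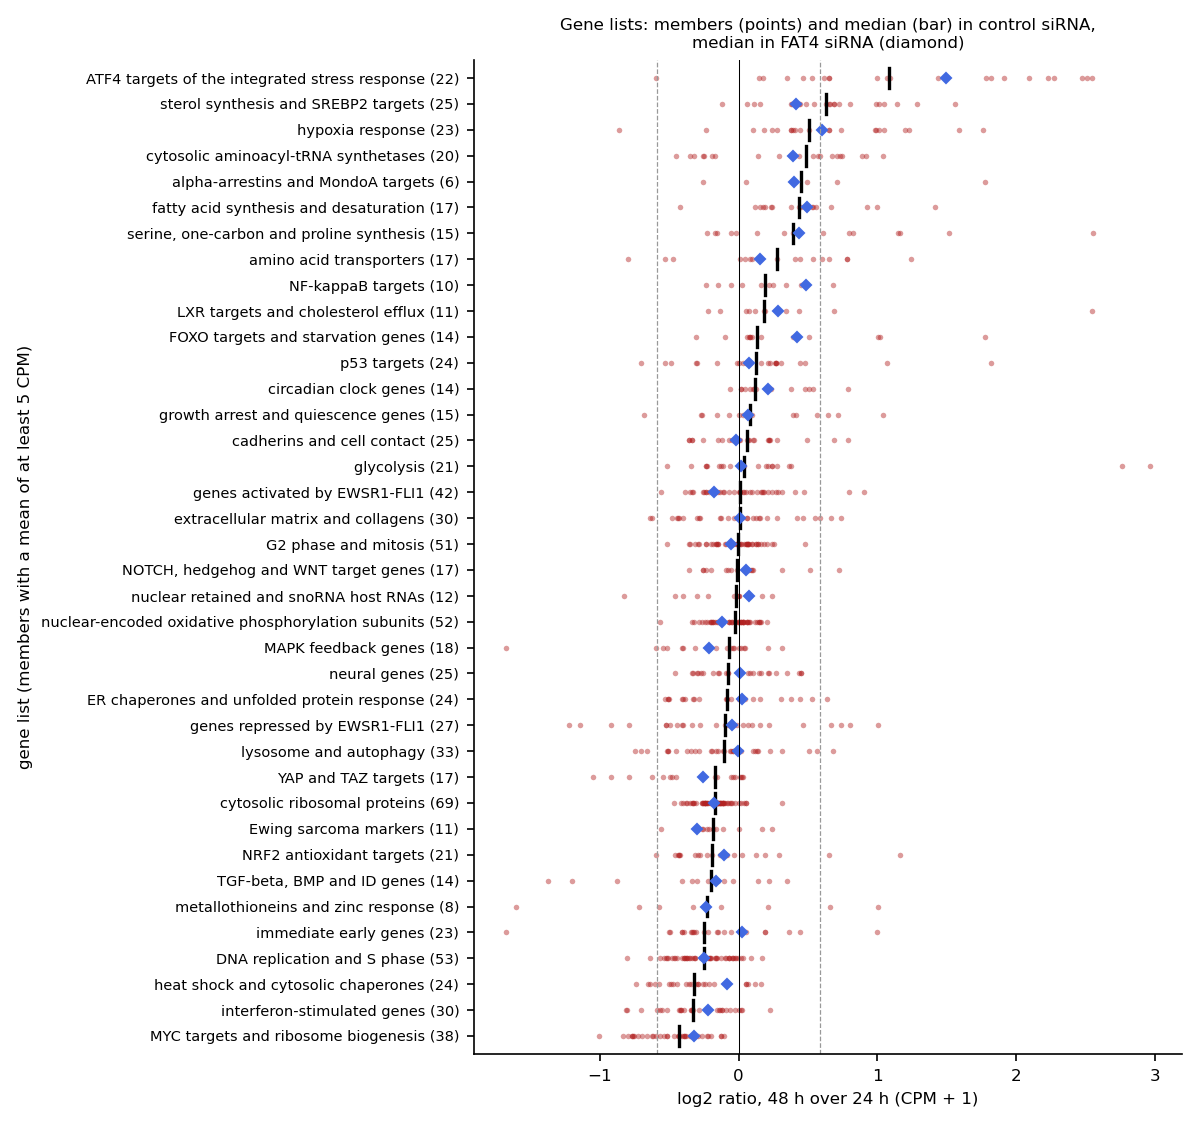
Log2 ratio of CPM + 1 (48 h over 24 h) for the members of each gene list with at least 5 members at a mean of 5 CPM, in control siRNA (points, with the median as a black bar), beside the median in FAT4 siRNA (diamond). Dashed lines mark 1.5-fold. The median runs from 1.08 for ATF4 targets to -0.43 for MYC targets and ribosome biogenesis.

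The FAT4 siRNA pair spans the same 24 h and shares no library with the control pair. In it 154 genes were at least 2-fold higher (1.45%) and 33 lower (0.311%), and 593 were at least 1.5-fold higher (5.6%) and 314 lower (2.96%). All 92 genes at least 2-fold higher in control cells had the same sign there, and 71 were again at least 2-fold higher, which is 77.2% of the control genes and 46.1% of the FAT4 siRNA genes. All 29 lower genes also had the same sign, and 10 were again at least 2-fold lower (34.5% and 30.3%). At 1.5-fold, 266 genes were higher in both (61.9% of 430 and 44.9% of 593) and 90 lower in both (39.0% of 231 and 28.7% of 314). No gene was past 1.5-fold in opposite directions. Over all 10595 genes 74.0% had the same sign, and the log2 ratios had a Pearson correlation of 0.74 and a Spearman correlation of 0.66 across genes, which are not independent and share the scaling. NEB measured 112 and 20.2 CPM, PCK2 14.5 and 124 CPM and ASNS 80.0 and 399 CPM after FAT4 siRNA, close to their control ratios. ATF4 targets had a median of 1.49 there, with 16 of 22 higher, 14 of them in both pairs. The sterol list had 7 of 25 higher and a median of 0.41, and ribosome biogenesis 6 of 38 lower and a median of -0.32.

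**Figure D4:**
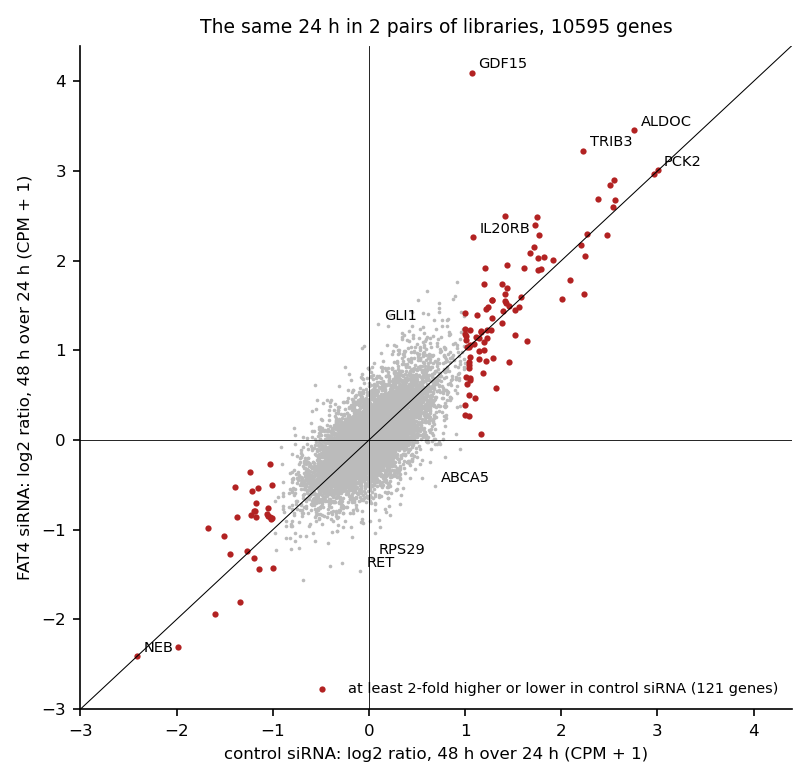
Log2 ratio of CPM + 1 (48 h over 24 h) in FAT4 siRNA against that in control siRNA, 1 point for each of 10595 genes, with the diagonal as the line of equal ratios. The 121 genes past 2-fold in control cells (red) all keep their sign, and GDF15 stands farthest from the diagonal.

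A few genes differed between the pairs. GDF15, a stress-induced cytokine on the ATF4 list, measured 0.851 and 2.88 CPM in control cells (log2 ratio 1.07) and 0.879 and 31.2 CPM after FAT4 siRNA (4.10). It reached the filter through the FAT4 siRNA 48 h library alone. RET, a receptor tyrosine kinase, measured 114 and 106 CPM in control cells and 81.6 and 29 CPM after FAT4 siRNA. GLI1, a target of hedgehog signalling and of EWSR1-FLI1, measured 10.9 and 11.7 CPM against 9.27 and 24.1 CPM. ABCA5 went opposite ways, with 19.9 and 32.6 CPM in control cells and 23.1 and 15.9 CPM after FAT4 siRNA. IL20RB, a cytokine receptor subunit, measured 1.84 and 5.02 CPM against 1.96 and 13.2 CPM. Like GDF15, IL20RB reached the filter only through the FAT4 siRNA 48 h library. RPS29, which has pseudogene copies, measured 45.9 and 47.1 CPM against 31.8 and 12.1 CPM. TRIB3 also differed in size, with 45 and 215 CPM in control cells and 43.6 and 417 CPM after FAT4 siRNA. These 24 h differences between siRNAs were not tested.

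Base composition moved with the control ratio. Across 10415 genes with a matched transcript (98.3%), the log2 ratio had a Spearman correlation of -0.30 with transcript GC content in the control pair and 0.01 in the FAT4 siRNA pair, and of 0.17 and 0.03 with transcript length. The control median fell from 0.08 in the lowest GC quartile to 0.02, -0.06 and -0.14 in the others. Genes at least 1.5-fold lower made up 0.192% of the lowest GC quartile and 5.30% of the highest, while genes at least 1.5-fold higher made up 4.42% and 3.84%. The part of base composition in the lower genes was not tested. After a correction for GC content and length, 87 of 91 genes with a transcript stayed at least 2-fold higher and 24 of 29 at least 2-fold lower. At 1.5-fold, 357 of 424 stayed higher but only 130 of 228 lower. Ribosome biogenesis then had 9 of 38 lower members and a median of -0.46, and ATF4 targets 16 of 22 higher and a median of 1.2. Lower members fell to 0 on the ATF4, growth arrest and NRF2 lists, 1 on MAPK feedback and 2 on lysosome and autophagy. The heat shock list and the YAP and TAZ list kept 3 each. Interferon-stimulated genes went the other way to 6, and replication genes to 3. SQSTM1, SLC7A11 and ABCA5 were then within 1.5-fold (log2 ratios of -0.54, 0.50 and 0.51).

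**Figure D5:**
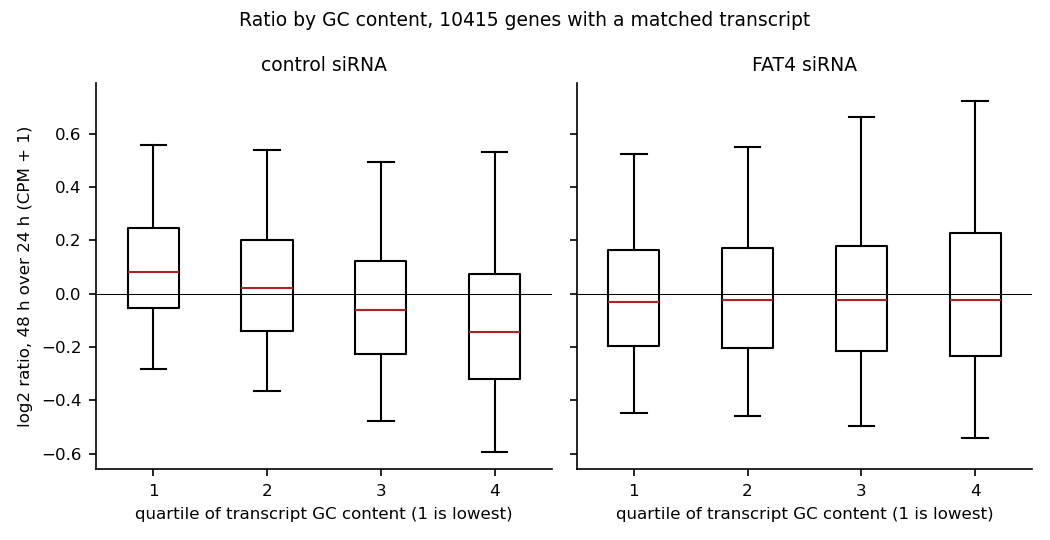
Log2 ratio of CPM + 1 (48 h over 24 h) by quartile of transcript GC content in the control siRNA pair (left) and the FAT4 siRNA pair (right), over 10415 genes; red lines are medians, boxes quartiles and whiskers the 5th and 95th percentiles. The control medians go from 0.08 to -0.14 and the FAT4 siRNA medians stay between -0.03 and -0.02.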

How the data were processed

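RNA-seq was made from A673 cells in 4 libraries, 1 for each siRNA and time, as TRIzol total RNA and TruSeq stranded mRNA libraries, per the labels' protocols. The authors deposited whole-number counts of reads per gene, 1 file a library. Per the submitters' processing notes, the build was hg19 and the tools were HTSeq, SAMtools, TopHat2 and CASAVA 1.8.2, in no stated order. No annotation, counting mode or strand setting is stated in the labels, so overlapping, antisense and near-identical genes are uncertain. The 5 counter entries that name no gene were left out. Reads outside genes were 19.48% to 20.54% of assignable reads.

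TMM factors (0.973 to 1.026) were computed with edgeR 4.0.16 in R 4.3.3 over the 4 libraries on 13712 genes kept by filterByExpr (minimum count 10, minimum total 15). From them came CPM, ratios with exact 95% Clopper-Pearson intervals and log2 ratios with a pseudocount of 1 CPM. Compared were the 10595 of 23228 genes whose mean over the 4 libraries was 5 CPM or more. The intervals cover counting error only, and 3 counts correspond to 0.134 to 0.203 CPM. With 1 library a side a gene is called by its fold alone (2-fold, or 1.5-fold for list members), and no p-value was made. The calculation was tested on simulated data.

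The comparison and the 42 gene lists (1170 entries, 1160 in the files) were chosen with earlier results of these data known. Named genes are the 15 highest lower bounds and 15 lowest upper bounds of the interval, up to 4 members of each list in the direction of its median and 2 against it, the 6 largest differences between the pairs, and label checks. Other list members, TGATGNAA and all genes under the filter were named after their values were seen. Length and GC content are those of the longest GENCODE 29 transcript. They were used for a spline correction with 5 degrees of freedom for GC content and 4 for length. Other scalings (DESeq2 1.42.0 size factors, total counts), pseudocounts and filters were tried. Most list members are given only through the counts and medians of their lists, and some are not reported by name here.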

Additional observations from a re-analysis of the deposited data

How the results depend on the processing

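No paired analysis was possible because each siRNA and time is 1 library and the labels carry no replicate numbers. For the same reason no library could be left out. With a pseudocount of 5 CPM, 51 genes were higher and 13 lower by 2-fold, and 253 were higher and 147 lower by 1.5-fold. With no filter on low levels, 158 genes were higher and 37 lower by the 2-fold limit, and 797 and 323 by the 1.5-fold limit. With the filter raised to a mean of 20 CPM, 45 were higher and 15 lower by the 2-fold limit, and 201 and 166 by the 1.5-fold limit. After correction for GC content and length, 141 were at least 1.5-fold lower, beside 231 without it. The median of the ATF4 targets was 0.91 with a pseudocount of 5 CPM and 0.87 with the filter at 20 CPM. Scaling by total counts moved the median of all genes to 0.04. Of 118 named genes past 1.5-fold, 18 were no longer past it with a pseudocount of 5 CPM, 13 after the GC correction and 9 with total counts, and none changed sign under these settings. TMM on all genes was added after seeing the data and moved 1 of the 118 to within 1.5-fold. Among the ATF4, serine, hypoxia, sterol and ribosome biogenesis lists no median changed sign under any setting tried. The medians of mitosis, oxidative phosphorylation, neural genes and genes activated by EWSR1-FLI1, all close to 0, did under some. So did those of extracellular matrix, of NOTCH, hedgehog and WNT targets, of nuclear retained RNAs and of fibroblast and muscle markers.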

Other observations

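Genes outside the lists, chosen after their values were seen, are given as values without explanation. ASS1 and ASL, which make arginine from citrulline and aspartate, measured 6.22 and 22.0 CPM (3.54-fold, interval 2.92 to 4.31) and 8.19 and 20.03 CPM (2.44-fold) at 24 h and 48 h in control cells. After FAT4 siRNA they measured 6.22 and 29.7 CPM and 4.87 and 10.8 CPM. The 2 enzymes of the pathway thus stood higher at 48 h in both pairs. PDCD4, which inhibits the translation initiation factor eIF4A, measured 21.2 and 59.0 CPM (2.78-fold, 2.50 to 3.10) and 22.3 and 74.2 CPM after FAT4 siRNA. TSC22D3, a glucocorticoid-induced gene, measured 13.3 and 36.2 CPM in control cells (2.73-fold). The Src family kinase FYN measured 8.51 and 26.3 CPM (3.09-fold), and AK4, a mitochondrial adenylate kinase, 7.83 and 22.1 CPM (2.82-fold). All 4 were higher at 48 h after FAT4 siRNA as well, with log2 ratios of 1.69, 1.31, 1.17 and 1.74.

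On the lower side, CCDC86, DHX37 and NOL6 encode nucleolar proteins that are not on the ribosome biogenesis list. CCDC86 measured 327 and 157 CPM (2.09-fold lower, 2.0 to 2.18), DHX37 122 and 59.9 CPM (2.03-fold lower) and NOL6 116 and 61.7 CPM (1.88-fold lower). TNFRSF12A, the receptor of the cytokine TWEAK, measured 32.0 and 13.6 CPM in control cells (2.35-fold lower) and 71.6 and 43.7 CPM after FAT4 siRNA. Its 48 h level after FAT4 siRNA was above its 24 h level in control cells, and the difference was not tested.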
